A study of Mus musculus with 7 samples.

Results

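R848 was compared with CpG B in spleen monocytes of a single mouse. The comparison rests on 2 of the 7 arrays of the series, the R848 array and the CpG B array of mouse 1. Its measure is the log2 difference of each gene, R848 minus CpG B, so a positive value means a higher level with R848. Levels are on the log2 scale, 1 per probe set, and a gene with several probe sets was read from the one that was brightest on average. Of 22180 genes with a single symbol, 11127 were compared, those whose log2 level reached 5 or more on 1 or more of the arrays. R848 was given at 2 µg/ml and CpG B at 2.5 µM, both for 3 h. The doses are in different units, and the sources used here do not say whether they were matched in potency, so a difference here is between these doses and not between the receptors alone.

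The other arrays gave the spread and the setting. They were 2 unstimulated arrays (mouse 1 and mouse 2), 2 arrays of cells given the monoclonal antiphospholipid antibody HL7G at 400 ng/ml (mouse 1 and mouse 2), and 1 array of mouse 1 cells given poly I:C, a double-stranded RNA mimic, at 1 µg/ml. All groups share wild-type EPCR, a receptor for protein C on endothelial and some myeloid cells. The labels name no strain or age and do not say how the monocytes were selected. Since R848 and CpG B had 1 array each, neither has a replicate of its own.

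R848 (resiquimod) is a small imidazoquinoline that activates Toll-like receptor TLR7, which senses single-stranded RNA. CpG B is an oligonucleotide with unmethylated CpG motifs that activates TLR9, a sensor of DNA. Both receptors reach endosomes with the help of UNC93B1, signal through the adaptor MYD88 and IRAK kinases, and turn on NF-kB, MAP kinases and IRF factors. Oligonucleotides of class B are known as strong activators of B cells and weak inducers of interferon-alpha.

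In the 3-hour response the R848 array read higher than the CpG B array for most interferon-stimulated genes, MHC class I genes, oxidase subunits and B cell markers, by medians of 0.35 to 0.50 on the log2 scale. The early genes Tnfaip3, Nfkbia, Myc, Ccl3 and Ccl5 differed by less than 0.25, as did the interferon response gene Irf7 (0.08). The NF-kB list as a whole still leaned to R848, with 22 of 28 tested members higher and a median of 0.31. Cxcl10, Dhx58, Bst2, Stat3 and Cd69 read 2.06 to 2.50 times as high with R848. The membrane genes Ms4a6b and Gimap3 lay on the other side, with higher levels on the CpG B array. So did the ribosome assembly genes Gnl3 and Nop14, by less than 2-fold. Most ribosome assembly genes, 21 of 31 tested, nonetheless read higher with R848. Few genes of the CpG B side rose with both agonists. Of the 79 that were 2-fold higher with CpG B, both agonist arrays lay above both unstimulated arrays for 4 and below both for 37.

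None of these differences passed the test. In limma's fit over all 7 arrays, which assumes that the lone arrays vary like the groups of 2, 0 of 11127 genes (0%) had a Benjamini-Hochberg adjusted p under 0.05. The smallest adjusted p was 1. At an unadjusted p under 0.05 limma gave 330 genes, fewer than the 556.35 that make up 5% of those tested, though without either HL7G array the count was 635. The median standard error of a difference was 0.335, so the intervals below are wide. They rest on gaps between 2 mice given the same treatment, whereas each difference lies within mouse 1. The values that follow describe these 2 arrays.

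At least 2-fold apart were 168 genes (1.51% of those compared), 89 of them higher with R848 (0.8%) and 79 higher with CpG B (0.71%). Over all genes the median difference was 0.05 and the standard deviation 0.381, and 56.1% read higher with R848. The split depended on the scaling. With loess scaling of the compared genes 83 were 2-fold higher with R848 and 138 with CpG B, so the R848 share went from 53.0% to 37.6%. Just inside the 2-fold limit lay Cd52 (1.002) and Gimap3 (-1.003), and just outside it Vapa (0.996) and Plpp5 (-0.997).

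Pairs of arrays with the same treatment give a scale for these counts. The 2 HL7G arrays, from different mice, had 612 genes 2-fold apart (5.5%) with a standard deviation of 0.494. The 2 unstimulated arrays had 212 (1.91%) with a standard deviation of 0.423. Fewer genes thus lay 2-fold apart between the 2 agonists in 1 mouse than between 2 mice given the same treatment.

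**Figure D1:**
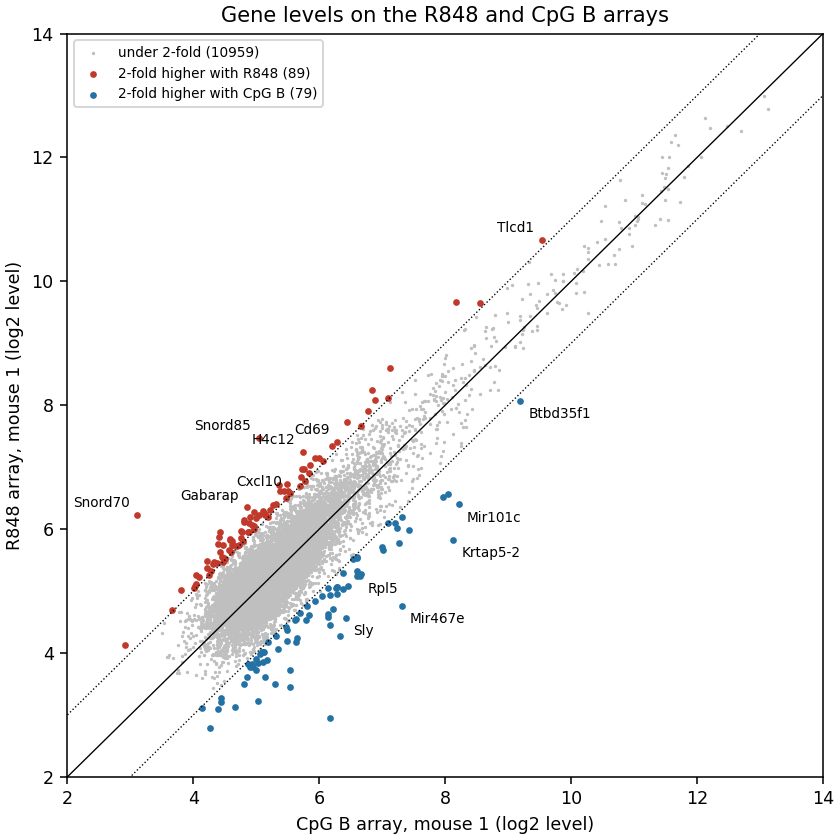
Log2 level of each of the 11127 genes on the R848 array (vertical axis) against the CpG B array (horizontal axis), both from mouse 1, with 1 point per gene. The solid line marks equal levels and the dotted lines 2-fold differences, with 89 genes above (red) and 79 below (blue), and Snord70 and Mir467e among the points farthest from equality.

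The labelled cell type was checked against its markers. Of 16 monocyte markers on the array 7 passed the level filter. Ly6c2 and Ccr2, which define the classical subset, read under the filter on all 7 arrays, with highest levels of 4.38 and 4.09. Lyz2, the lysozyme of myeloid cells, read 6.18 with R848 and 5.60 with CpG B, a difference of 0.58 (95% interval -0.56 to 1.72). Plac8, a marker of inflammatory monocytes, read 6.97 with R848 and 5.76 with CpG B, a difference of 1.21 (95% interval 0.14 to 2.29). Cx3cr1, the fractalkine receptor of patrolling monocytes, read 5.13 and 5.40, and Csf1r, the receptor for macrophage growth factor, read 5.25 and 5.49. The 7 tested markers had a median difference of 0.01, and their direction was thus mixed.

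B cell markers were present and leaned one way. Of 12 tested B cell markers 10 read higher with R848, with a median difference of 0.50, and none reached 2-fold. Among the 4 with a mean level of at least 6 the median was 0.14 and 2 read higher, where all genes at that level had a median of 0.15. The sum of the log2 levels of the B cell markers was 82.7 with R848 and 77.8 with CpG B, beside 70.2 and 73.4 on the unstimulated arrays, 87.4 and 87.1 with HL7G and 80.6 with poly I:C. Cd79a, a signalling chain of the B cell receptor, read 6.10 with R848 and 5.21 with CpG B, a difference of 0.88. Ms4a1, which encodes CD20, read 6.06 and 5.49, and Bank1, a B cell adaptor, read 6.57 and 5.79. The exceptions were Cd79b, at 6.03 and 6.08, and Ighm, the IgM heavy chain, at 8.63 and 8.78. In bulk RNA fewer cells of a type and less RNA per cell cannot be told apart, and the part of B cell content in the differences that follow was not tested. T cell markers had a median difference of 0.16, with 7 of 11 higher with R848, and all 3 tested NK cell markers (Nkg7, Prf1, Klrb1c) read higher with CpG B, by 0.09 to 0.45.

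The receptors themselves gave little. Tlr7 read 3.77 and 3.51 on the unstimulated arrays, 5.57 and 4.71 with HL7G, 4.08 with R848, 4.10 with CpG B and 4.18 with poly I:C. The R848 and CpG B arrays were thus nearly equal, with a difference of -0.03 (95% interval -1.09 to 1.03). Tlr9 read 5.57 and 5.30 unstimulated, 6.11 and 5.44 with HL7G, 6.30 with R848, 5.95 with CpG B and 6.03 with poly I:C, a difference of 0.35 (95% interval -0.60 to 1.30). Tlr3, the receptor for double-stranded RNA, stayed under the filter on every array.

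Genes that serve these receptors mostly read higher with R848. Among 17 tested genes of endosomal Toll-like receptors and their trafficking 14 read higher with R848, with a median of 0.32 (0.18 with loess scaling). Unc93b1, which escorts the receptors, read 6.35 with R848 and 5.79 with CpG B. Slc15a3, an endolysosomal transporter, read 5.66 and 4.86, and Cnpy3, a chaperone for these receptors, 6.30 and 5.72. On each of these genes the CpG B array still lay above both unstimulated arrays.

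Among 22 tested adaptors and kinases 17 read higher with R848, with a median of 0.29. Pik3ap1 (BCAP), an adaptor that links receptors to PI3-kinase, was the only one past 2-fold. It read 5.73 and 5.95 unstimulated, 8.73 and 7.22 with HL7G, 7.91 with R848, 6.77 with CpG B and 7.53 with poly I:C. Myd88 read 4.77 and 4.78 unstimulated, 6.51 and 5.67 with HL7G, 5.67 with R848, 4.88 with CpG B and 5.71 with poly I:C. The CpG B level of Myd88 was close to that of unstimulated cells while R848, poly I:C and HL7G were all higher, and the difference was 0.79 (95% interval -0.23 to 1.81). Irak2, a kinase of the MYD88 complex, read 5.21 with R848 and 5.42 with CpG B.

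NF-kB genes split into equal and R848-leaning members. Nfkbia, the inhibitor IkB-alpha, read 8.32 with R848 and 8.13 with CpG B, against 6.35 and 6.97 unstimulated. Tnfaip3 (A20), which ends NF-kB signalling, read 7.20 on both arrays, with a difference of -0.00 (95% interval -1.41 to 1.41). Nfkbiz, a nuclear inhibitor that is also a coactivator of late genes, read 7.95 with R848 and 8.17 with CpG B, far from the unstimulated 4.46 and 4.53. For these 3 genes the agonist arrays stood together and above both unstimulated arrays.

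Relb and Nfkb2, the subunits of the alternative pathway, leaned to R848. Relb read 6.44 with R848 and 5.70 with CpG B, where the unstimulated arrays read 5.46 and 5.69. Nfkb2 read 7.69 and 7.05, against 5.26 and 5.47 unstimulated. Tnip3, an inhibitor induced by NF-kB, had the largest difference of the list, 0.94, from 5.63 with R848 and 4.69 with CpG B. Over the whole list 22 of 28 tested members read higher with R848, the median was 0.31, and 23 of 28 lay above both unstimulated arrays on both agonist arrays, as did 35.5% of all genes compared.

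**Figure D2:**
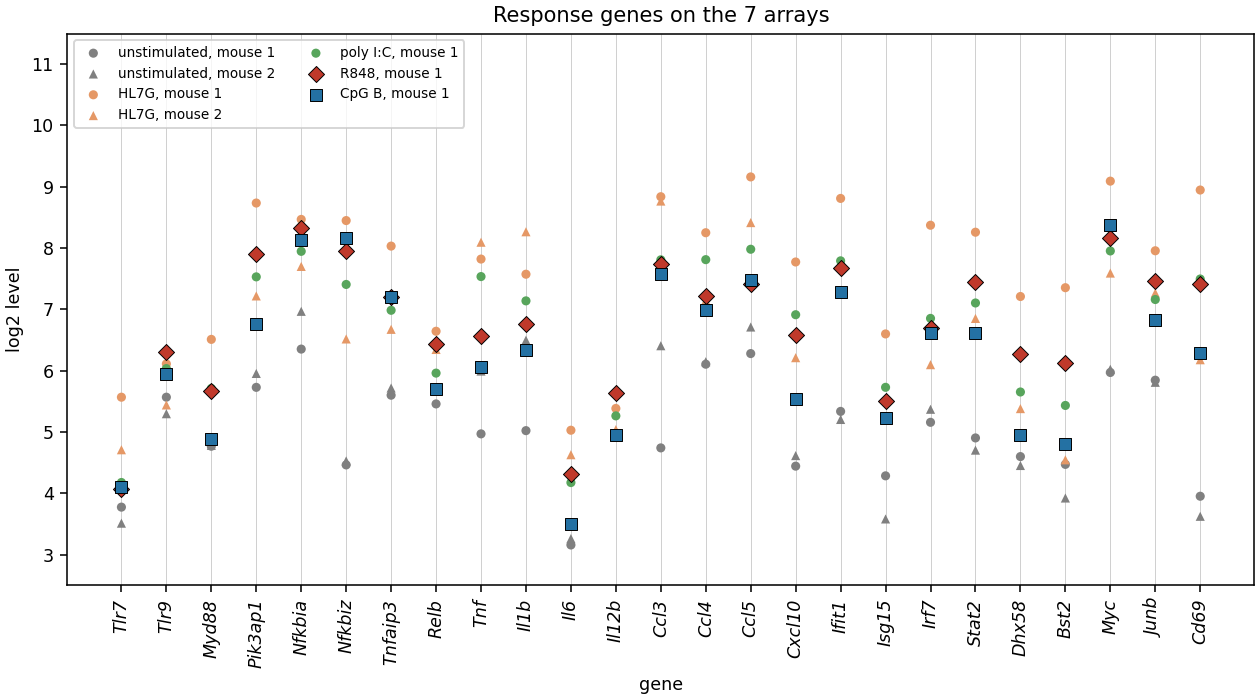
Log2 level (vertical axis) of 25 response genes (horizontal axis) on each of the 7 arrays, with red diamonds for R848, blue squares for CpG B, green for poly I:C, orange for HL7G and grey for unstimulated cells, circles for mouse 1 and triangles for mouse 2. The R848 and CpG B symbols coincide for Tnfaip3 (7.20 on both) and separate for Dhx58 (6.28 and 4.96) and Cd69 (7.41 and 6.29).

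Inflammatory cytokines were higher with R848 in 11 of 14 tested members, with a median of 0.38. Tnf read 4.97 and 5.99 unstimulated, 7.82 and 8.09 with HL7G, 6.56 with R848, 6.06 with CpG B and 7.53 with poly I:C. Both agonist arrays lay under the HL7G and poly I:C arrays, and the unstimulated array of mouse 2 was close to the CpG B array. Il1b read 6.77 with R848 and 6.34 with CpG B, and the unstimulated array of mouse 2, at 6.50, lay between them. Neither difference, 0.50 for Tnf and 0.43 for Il1b, exceeded the gap between the 2 unstimulated mice.

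Il6 and Il12b stood further apart. Il6 read 3.16 and 3.26 unstimulated, 5.03 and 4.63 with HL7G, 4.32 with R848, 3.50 with CpG B and 4.17 with poly I:C, a difference of 0.82 (95% interval 0.03 to 1.60, limma adjusted p 1). Both agonist levels of Il6 were under 5, and the gene was compared because an HL7G array reached that level. Il12b, the p40 chain shared by IL-12 and IL-23, read 4.97 and 4.94 unstimulated, 5.38 and 5.04 with HL7G, 5.64 with R848, 4.95 with CpG B and 5.26 with poly I:C. The CpG B array thus stood at the unstimulated level for Il12b, and the R848 array was the highest of the 7. Il12a, the p35 chain, read 5.23 and 5.29. Il10, Il23a and Ifnb1 stayed under the filter on every array.

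Chemokines had a median difference of 0.20, and 10 of 13 tested members read higher with R848. Ccl3 read 7.74 with R848 and 7.58 with CpG B, Ccl4 7.22 and 6.99, and Ccl5 7.42 and 7.49. These attractants of T cells and monocytes were nearly equal on the agonist arrays. Cxcl10, an interferon-induced attractant of T cells, was the exception and the only chemokine past 2-fold. It read 4.44 and 4.61 unstimulated, 7.77 and 6.21 with HL7G, 6.57 with R848, 5.53 with CpG B and 6.91 with poly I:C, a difference of 1.04 (95% interval -0.53 to 2.62).

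Interferon-stimulated genes encode antiviral effectors, sensors and the factors that induce them. Of 61 tested members 52 read higher with R848, with a median of 0.37 (0.30 with loess and 0.26 with quantile scaling), and 6 were 2-fold higher with R848 and none with CpG B. The 2-fold shares over all genes compared were 0.8% with R848 and 0.71% with CpG B. The median level over the list was 6.45 with R848 and 6.01 with CpG B, beside 4.75 and 4.78 unstimulated, 7.54 and 6.04 with HL7G and 6.21 with poly I:C. For 55 of the 61 both agonist arrays lay above both unstimulated arrays, against 35.5% of all genes. The difference exceeded in size the gap between the 2 HL7G mice for 6 of the 61, against 44.4% of all genes.

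The members past 2-fold include sensors and effectors. Dhx58 (LGP2), an RNA helicase that tunes RNA sensing, read 4.60 and 4.45 unstimulated, 7.21 and 5.38 with HL7G, 6.28 with R848, 4.96 with CpG B and 5.65 with poly I:C. Bst2 (tetherin), which holds budding virus at the membrane, read 4.47 and 3.92 unstimulated, 7.35 and 4.54 with HL7G, 6.12 with R848, 4.80 with CpG B and 5.43 with poly I:C. Ifih1 (MDA5), a sensor of long double-stranded RNA, read 3.77 and 3.90 unstimulated, 7.53 and 5.95 with HL7G, 6.39 with R848, 5.26 with CpG B and 6.16 with poly I:C. For all 3 genes the R848 array was above the poly I:C array and the CpG B array below it. So it was for 79.8% of all genes 2-fold higher with R848, where a wide gap leaves more room between. Ifi205, another member past 2-fold, read 5.92 with poly I:C and 5.85 with R848. Bst2 is also a marker of plasmacytoid dendritic cells, whose list had a median of 0.13 over 7 tested members, or 0.65 where the probe sets of each gene were averaged.

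Gbp5, a guanylate-binding protein that acts against intracellular microbes, read 6.07 with R848 and 4.93 with CpG B, against 3.53 and 4.13 unstimulated. Ifi205, a nucleic acid-binding protein of the PYHIN family, read 5.85 and 4.58, a difference of 1.27 (95% interval 0.17 to 2.37, limma adjusted p 1). Rtp4, an interferon-induced brake on antiviral signalling, read 7.67 and 6.66. With Ifih1 and Rtp4, which were picked after their values were seen, these are the 6 members past 2-fold. Gbp4, which was in no list and was picked after its values were seen, lay on the other side, at 4.01 with R848 and 5.12 with CpG B, with 7.14 and 4.12 on the HL7G arrays.

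The most used reporter genes of the interferon response stood closer together. Ifit1, which binds foreign RNA caps, read 7.67 with R848 and 7.29 with CpG B. Isg15, a ubiquitin-like modifier, read 5.51 and 5.23, and Irf7, the factor that amplifies interferon-alpha, 6.69 and 6.61. All 3 lay above both unstimulated arrays with either agonist. The interferon genes themselves had a median of 0.05 over 8 tested members, which turned to -0.10 with loess scaling, and for none of the 8 did both agonist arrays lie above both unstimulated arrays.

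Most IRF and STAT transcription factors also read higher with R848, though Irf7, given above, was nearly equal. Stat3, the transcription factor downstream of IL-6 and IL-10, read 5.16 and 5.16 unstimulated, 7.45 and 6.52 with HL7G, 6.84 with R848, 5.70 with CpG B and 6.48 with poly I:C. Its difference was 1.13 (95% interval 0.05 to 2.22, limma adjusted p 1). Irf9 and Stat2 encode transcription factors of the interferon response. Irf9 read 6.46 with R848 and 5.54 with CpG B, a difference of 0.92 (95% interval 0.20 to 1.64), and Stat2 read 7.45 and 6.62. Of 16 tested IRF and STAT factors 13 read higher with R848, with a median of 0.31.

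The upstream sequences of 4 response genes past 2-fold are given because they hold letters that resemble the sites of these factors. Each is the 250 bases before the transcription start, from RefSeq on build GRCm38.p6, written 5′ to 3′ on the gene's strand. Capitals mark matches on either strand to the core of an interferon-stimulated response element (GAAA, any 2 bases, GAAA) or to an NF-kB-like motif (GGGA, any base, TT, any base, CC). The windows are Bst2 at chr8:71537473-71537722 (minus strand), Cxcl10 at chr5:92348890-92349139 (minus strand), Gbp5 at chr3:142496684-142496933 (plus strand) and Ifi205 at chr1:174031756-174032005 (minus strand).
Bst2: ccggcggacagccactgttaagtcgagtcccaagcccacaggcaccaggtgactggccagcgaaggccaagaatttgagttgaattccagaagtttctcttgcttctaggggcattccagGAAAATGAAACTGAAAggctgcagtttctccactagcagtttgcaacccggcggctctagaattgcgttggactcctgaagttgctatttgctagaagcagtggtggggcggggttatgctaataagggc
Cxcl10: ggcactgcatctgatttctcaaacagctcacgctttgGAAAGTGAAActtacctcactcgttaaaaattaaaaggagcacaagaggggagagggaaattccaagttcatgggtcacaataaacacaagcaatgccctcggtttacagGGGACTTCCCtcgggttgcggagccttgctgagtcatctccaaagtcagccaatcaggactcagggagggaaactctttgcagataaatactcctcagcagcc
Gbp5: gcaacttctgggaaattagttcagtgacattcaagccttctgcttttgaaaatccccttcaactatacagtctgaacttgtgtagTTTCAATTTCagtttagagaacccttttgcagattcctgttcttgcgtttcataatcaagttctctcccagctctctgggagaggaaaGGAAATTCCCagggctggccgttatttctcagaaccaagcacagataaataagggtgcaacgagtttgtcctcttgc
Ifi205: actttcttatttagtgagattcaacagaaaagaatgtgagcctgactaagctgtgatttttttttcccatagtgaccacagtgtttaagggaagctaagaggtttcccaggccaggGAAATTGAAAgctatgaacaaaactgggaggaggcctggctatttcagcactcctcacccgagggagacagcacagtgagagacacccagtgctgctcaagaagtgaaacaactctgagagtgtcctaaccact

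In Bst2 the capitals hold 2 overlapping response-element matches, which start 130 and 124 bases before the transcription start. Cxcl10 and Gbp5 hold 1 match of each motif, and Ifi205 holds 1 response-element match. Windows of this kind were found for 57 of the 89 genes 2-fold higher with R848 and for 53 of the 79 higher with CpG B. The response-element letters were in 6 of the 57 (10.5%), namely Bst2, Cxcl10, Gbp5, Ifi205, Saa3 and the olfactory receptor Olfr344. They were in 2 of the 53 (3.77%), in 281 of the 8586 found for compared genes (3.27%) and in 978 of all 32851 windows (2.98%). The NF-kB-like letters were in 4 of the 57 (7.02%), namely Cxcl10, Gbp5, H2-Aa and Sbno2, in none of the 53, in 128 of the 8586 (1.49%) and in 322 of all windows (0.98%). Of the 49 tested interferon-stimulated genes with a window 20 (40.8%) held the response-element letters. A match describes these letters only and is no evidence of binding.

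Most antigen presentation genes read higher with R848. All 18 tested genes of the MHC class I pathway did so, by 0.06 to 0.70, with a median of 0.35, though with loess scaling 15 of 18 did, with a median of 0.20. H2-K1, a class I heavy chain, read 6.16 and 7.68 unstimulated, 9.09 and 9.01 with HL7G, 8.55 with R848, 8.04 with CpG B and 8.30 with poly I:C. H2-T23, the nonclassical molecule Qa-1, read 5.75 with R848 and 5.06 with CpG B, and Psme1, a proteasome activator, 7.59 and 6.96. None of the 18 was 2-fold apart.

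In the MHC class II pathway 8 of 10 tested genes read higher with R848, with a median of 0.41. H2-Aa, the alpha chain of I-A, read 4.20 and 5.11 unstimulated, 7.53 and 6.21 with HL7G, 7.15 with R848, 5.94 with CpG B and 6.31 with poly I:C. H2-Eb1, the beta chain of I-E, read 7.47 with R848 and 6.67 with CpG B. Both agonist arrays lay above both unstimulated arrays for these class II chains. B cells express class II genes as well. Class II genes and B cell markers both read higher with R848, and the part of those cells was not tested.

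Surface activation markers were divided. Cd69, an early activation marker of lymphocytes and myeloid cells, read 3.95 and 3.62 unstimulated, 8.95 and 6.18 with HL7G, 7.41 with R848, 6.29 with CpG B and 7.49 with poly I:C. The CpG B array was the lower of the agonist arrays yet far above the unstimulated ones, and the interval of the difference, 1.12, ran from -1.48 to 3.72. Cd83, a maturation marker, read 7.92 with R848 and 7.43 with CpG B. Over the 20 tested members of the costimulation list 10 read higher with R848, and the median was -0.01. It was 0.46 over the 5 with a mean level of at least 6, where all genes at that level had a median of 0.15.

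Genes of the phagocyte oxidase and oxidant defence read higher with R848 in 16 of 17 tested members, with a median of 0.38. Cybb, the catalytic subunit of the oxidase, read 4.41 and 4.87 unstimulated, 7.92 and 6.81 with HL7G, 7.02 with R848, 6.38 with CpG B and 6.48 with poly I:C. Ncf1, its cytosolic organiser p47phox, read 7.14 with R848 and 6.43 with CpG B. Hmox1, the heme-degrading enzyme, read 6.06 and 5.45. Acod1, which makes the antimicrobial metabolite itaconate, belonged to a list that leaned the other way, with a median of -0.17, yet itself read 5.91 with R848 and 4.99 with CpG B, where the unstimulated arrays read 5.05 and 5.57.

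Immediate-early factors had a median of 0.00 and were split 14 to 13. The median was -0.10 with loess scaling. It was 0.46 over the 7 with a mean level of at least 6, where all genes at that level had 0.15. Myc, the growth factor-induced regulator of biosynthesis, read 8.16 with R848 and 8.38 with CpG B, against 5.97 and 6.02 unstimulated. Egr1, Egr2 and Nr4a1, fast-responding factors, differed by 0.20 or less between the agonist arrays. Junb read 7.45 and 6.82, and Atf4, the stress-response factor that drives amino acid synthesis, read 7.09 and 6.06 and was the only member past 2-fold. MAP kinase phosphatases were also split, 5 of 11 higher with R848, with Dusp2 at 6.78 and 6.48.

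**Figure D3:**
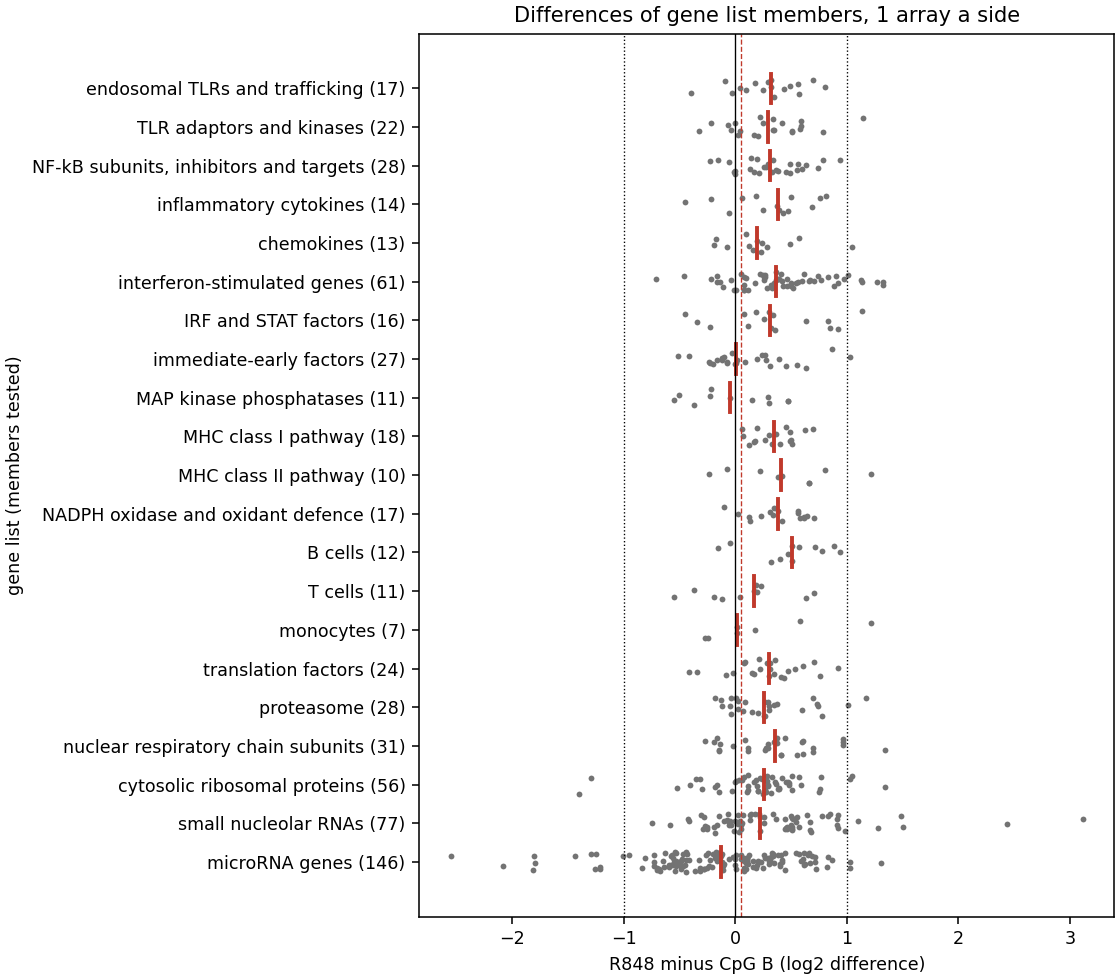
Log2 difference R848 minus CpG B (horizontal axis) of each tested member of 21 gene lists (vertical axis, number of members in brackets), 1 point per gene with the list median as a red bar. The dashed line is the median over all genes (0.05) and the dotted lines are 2-fold; MHC class I members all lie right of 0 and microRNA genes spread furthest to the left.

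Housekeeping processes leaned to R848 as well. Translation factors were higher with R848 in 20 of 24 tested members (median 0.31), nuclear respiratory chain subunits in 24 of 31 (median 0.36) and proteasome subunits in 22 of 28 (median 0.26). Psmb4 (5.95 with R848 and 4.78 with CpG B) and Psma2 (5.74 and 4.73), subunits of the proteasome core, and Ndufa2 (6.15 and 4.81), a subunit of complex I, were past 2-fold. Cytosolic ribosomal proteins had a median of 0.26 and 45 of 56 higher, but with loess scaling the median was 0.03 and 30 of 56 were higher. Over all genes the median difference was 0.02 at a mean level under 5, 0.05 from 5 to 6, 0.17 from 6 to 7 and 0.11 from 7 up. At a mean level of at least 6 it was 0.15. A mean level of at least 6 was reached by 13 of the 24 translation factors. Only 7 of the 31 respiratory chain subunits and 4 of the 28 proteasome subunits reached it.

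Ribosome assembly genes held members on the CpG B side. For all 31 tested members both agonist arrays lay above both unstimulated arrays, against 35.5% of all genes. Gnl3 (nucleostemin), a nucleolar GTPase, read 4.88 and 4.73 unstimulated, 8.10 and 6.23 with HL7G, 7.38 with R848, 8.25 with CpG B and 6.72 with poly I:C. Nop14, which helps to assemble the small subunit, read 4.50 and 4.67 unstimulated, 6.95 and 5.36 with HL7G, 5.37 with R848, 6.32 with CpG B and 5.49 with poly I:C. Both genes were highest with CpG B among the agonists. Nop2, an RNA methyltransferase of the nucleolus, went the other way, at 7.30 with R848 and 6.58 with CpG B, and the list's median was 0.16 with 21 of 31 higher with R848.

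On the R848 side Gabarap, H4c12, Rpl9 and Ndufa2 differed most among named genes with a level of at least 6 on either array. Gabarap, a protein that binds autophagosome membranes, read 5.11 and 4.84 unstimulated, 6.48 and 6.34 with HL7G, 6.35 with R848, 4.84 with CpG B and 5.81 with poly I:C. The CpG B array was thus at the unstimulated level and every other stimulated array above it, and the difference was 1.51 (95% interval 0.76 to 2.25, limma adjusted p 1). Its other probe set gave 0.56. H4c12, a histone H4 gene, read 5.32 and 5.94 unstimulated, 7.64 and 7.54 with HL7G, 7.24 with R848, 5.74 with CpG B and 6.84 with poly I:C, the same order. Histone genes are near-identical copies and the probes may not tell them apart.

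Rpl9, a ribosomal protein, read 6.70 with R848 and 5.36 with CpG B, but its 2 probe sets disagreed, from -0.44 to 1.34. Imp3, a component of the small-subunit processome, read 6.97 and 5.72, and both of its probe sets agreed (1.14 and 1.25). Rcn1, a calcium-binding protein of the endoplasmic reticulum, read 6.62 and 5.37, with 4.59 and 4.45 unstimulated. Pcbp2, an RNA-binding protein that also restrains antiviral signalling, read 8.09 and 6.88. Marcksl1, an actin-regulating protein, read 6.10 and 4.88, Pitpna, a lipid transfer protein, 6.73 and 5.49, and Sde2, a splicing and replication factor, 6.23 and 5.04. Clec4e (Mincle), a receptor for mycobacterial glycolipid that was picked after its values were seen, read 3.86 and 4.37 unstimulated, 5.38 and 5.60 with HL7G, 5.26 with R848, 4.04 with CpG B and 5.02 with poly I:C. For Clec4e the CpG B array lay between the unstimulated arrays.

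**Figure D4:**
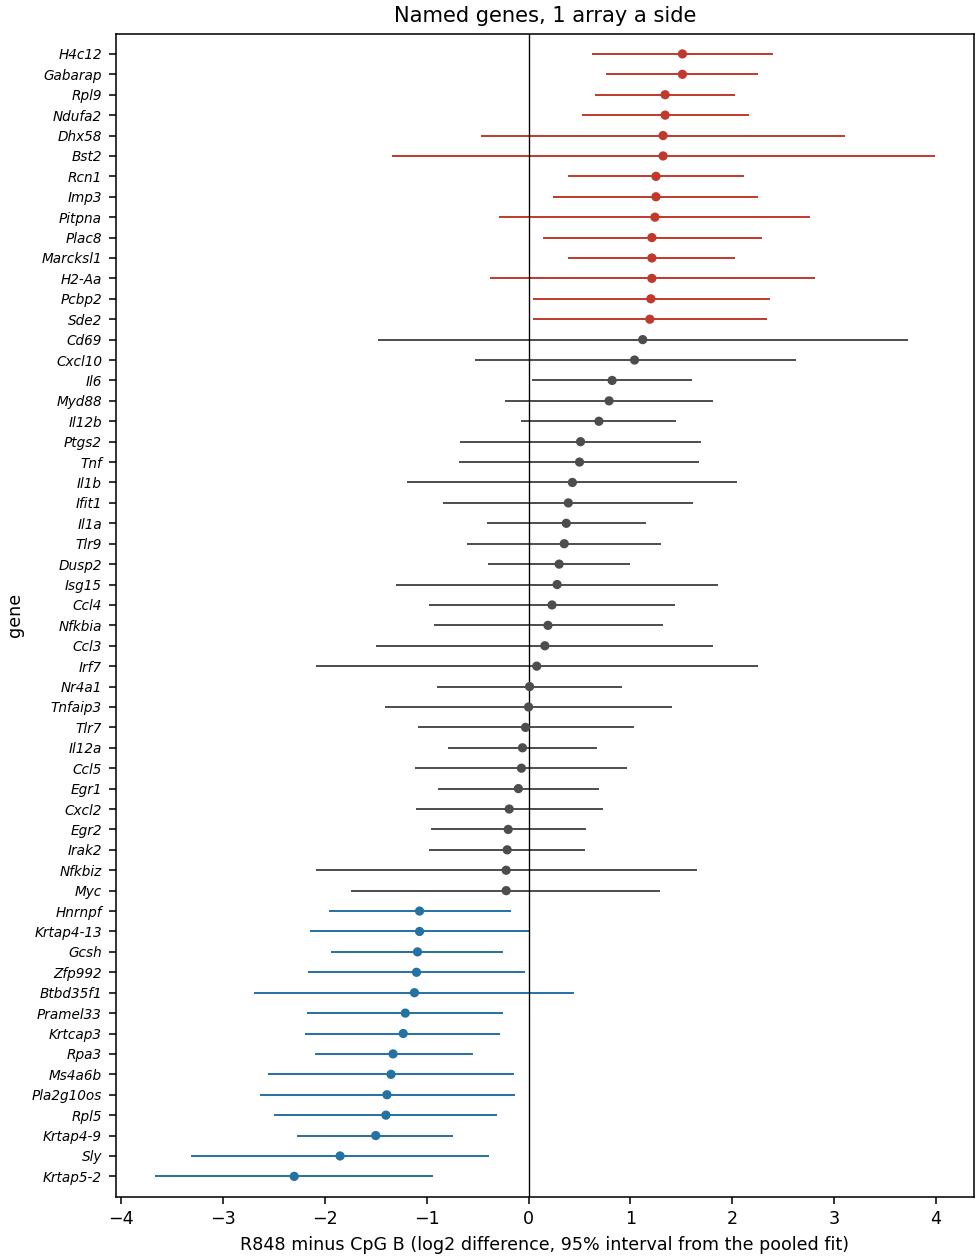
Log2 difference R848 minus CpG B (horizontal axis) with its 95% interval from the pooled limma fit, by gene (vertical axis). Shown are the 14 largest named differences each way at a level of at least 6 on either array, and genes named whatever their value. Red is higher with R848, blue higher with CpG B and grey a gene named whatever its size, and the intervals of Tlr7, Tnfaip3, Myc and Irf7 span 0 by more than 1 on the right.

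Of the 79 genes on the CpG B side the R848 array was the lowest of the 7 arrays for 63, against 1265 of all 11127. A low R848 level is part of how these genes were selected. Both agonist arrays lay below both unstimulated arrays for 37 and above both for 4, against 2665 and 3953 of all genes. Ms4a6b was among the named genes of that side. It encodes a membrane protein of lymphocytes and macrophages related to CD20. It read 4.0 and 4.77 unstimulated, 7.31 and 6.53 with HL7G, 5.66 with R848, 7.0 with CpG B and 5.46 with poly I:C, so that CpG B was close to HL7G and above the other agonists. The difference was -1.35, and the gene read 2.55 times as high with CpG B. Gimap3, a GTPase that supports lymphocyte survival and was picked after its values were seen, read 5.12 and 5.99 unstimulated, 7.33 and 7.56 with HL7G, 6.09 with R848, 7.09 with CpG B and 6.18 with poly I:C. Here too CpG B lay nearer to HL7G than the other agonists did. Zc3h12c, an RNase that degrades cytokine messages, read 6.31 with R848 and 6.97 with CpG B, a difference of -0.66 (95% interval -2.28 to 0.97).

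Other named genes of that side read as follows. Rpl5, a ribosomal protein, read 6.31 and 6.73 unstimulated, 5.26 and 6.10 with HL7G, 5.24 with R848, 6.65 with CpG B and 6.11 with poly I:C. Hnrnpf, a splicing factor, read 5.53 and 6.60, with 6.62 and 7.24 unstimulated, and its 5 probe sets ranged from -1.07 to 0.16. Rpa3, a subunit of the single-strand DNA-binding complex, read 4.95 and 6.28, and its 2 probe sets gave -1.33 and 0.10. Gcsh, a protein of glycine cleavage, read 5.05 and 6.14.

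Much of that side was made of gene families known from testis, hair and sensory tissue. Sly, a Y-linked gene of the testis with multiple copies, read 4.57 with R848 and 6.42 with CpG B. Its 6 probe sets all read lower with R848, by 0.18 to 1.85. Krtap5-2, the largest named difference of that side, read 5.83 with R848 and 8.13 with CpG B. Keratin-associated proteins of hair (3 of 16 tested), vomeronasal receptors (12 of 50) and olfactory receptors (11 of 173) were 2-fold higher with CpG B, and 4 olfactory receptors and none of the other families were 2-fold higher with R848. Over all genes compared the shares were 0.71% with CpG B and 0.8% with R848. Vomeronasal receptors had medians of 5.70 and 5.74 unstimulated, 4.77 and 4.93 with HL7G, 4.78 with R848, 5.16 with CpG B and 5.23 with poly I:C. Their R848 median lay with the HL7G arrays and the CpG B median with poly I:C. Members of these families are close copies, so single members are uncertain.

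Small nucleolar RNAs, which guide modification of ribosomal RNA, were 2-fold higher with R848 in 6 of 77 tested members and in none with CpG B, with a median of 0.22 and 54 of 77 higher. Over all genes compared 0.8% were 2-fold higher with R848 and 0.71% with CpG B. The small nucleolar RNAs and the microRNA genes below were described after their values were seen. Snord70 read 2.49 and 3.97 unstimulated, 7.31 and 9.36 with HL7G, 6.22 with R848, 3.11 with CpG B and 5.25 with poly I:C, and its CpG B level was under the filter level. Snord85 read 5.34 and 5.87 unstimulated, 7.33 and 6.15 with HL7G, 7.47 with R848, 5.04 with CpG B and 6.25 with poly I:C. For Snord70 the CpG B array lay between the unstimulated arrays and the R848 array among the other stimulated ones. For Snord85 the CpG B array was the lowest of the 7 and the R848 array the highest. Its poly I:C and mouse 2 HL7G levels were closer to the unstimulated array of mouse 2 than to R848. Snord37 read 9.67 with R848 and 8.17 with CpG B, but 4.54 and 7.88 on the 2 unstimulated arrays, a gap between mice wider than the difference. The list's median level on the unstimulated array of mouse 1, 6.45, was far under the 9.19 to 9.91 of the other 6 arrays, and that array enters the spread but not the difference.

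MicroRNA genes leaned to CpG B among the 146 tested, with a median of -0.13, but to R848 among all 483 on the array when no filter was set, with a median of 0.05. Of the 146 tested 12 were 2-fold higher with CpG B and 3 with R848, and 63 read higher with R848. The 2-fold shares over all genes compared were 0.71% with CpG B and 0.8% with R848. Mir467e read 7.61 and 8.42 unstimulated, 6.82 and 6.67 with HL7G, 4.76 with R848, 7.31 with CpG B and 7.49 with poly I:C. Mir101c read 9.43 and 8.95 unstimulated, 7.50 and 8.0 with HL7G, 6.40 with R848, 8.22 with CpG B and 8.60 with poly I:C. Mir194-2 read 5.52 and 5.63 unstimulated, 4.67 and 4.48 with HL7G, 3.73 with R848, 5.53 with CpG B and 5.83 with poly I:C. For these 3 the R848 array was the lowest of the 7 and the HL7G arrays came next. A microRNA gene is cut into a hairpin and then into mature strands that bind messages through the seed, and whether a probe set read the primary transcript, the hairpin or the mature strand is not known here.

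Of the 15 microRNA genes 2-fold apart 11 were found in the RefSeq table of build GRCm38.p6. Mature sequences of 5 of them are given, since these carry the largest matched differences and a pair of neighbours on chromosome 3. Capitals mark the seed, bases 2 to 8 from the 5′ end. They lie at chr4:10845585-10845606 (miR-3471, minus strand), chr9:3038680-3038698 (miR-101c, minus strand), chr19:6264658-6264679 (miR-194-5p, plus strand), chr3:88215613-88215635 (miR-9-5p, plus strand), and chr3:88215186-88215207 (miR-3093-5p, plus strand).
mmu-miR-3471: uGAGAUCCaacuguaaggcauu
mmu-miR-101c: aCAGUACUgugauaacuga
mmu-miR-194-5p: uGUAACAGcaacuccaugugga
mmu-miR-9-5p: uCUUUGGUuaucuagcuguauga
mmu-miR-3093-5p: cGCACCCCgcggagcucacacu

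Mature sequences were read for the matched genes other than Mir143 on chromosome 18, whose seeds were not compared. The 16 sequences read had 16 different seeds, so no seed was shared among them. Mir3471-1 read 3.45 with R848 and 5.53 with CpG B, with 5.21 and 5.99 unstimulated. Mir9-1 and Mir3093 are neighbours on the same strand of chromosome 3. Mir9-1 read 3.85 with R848 and 5.11 with CpG B, while Mir3093 read 5.63 and 4.60. The probe sets read for them thus went opposite ways. That of Mir9-1 passed the level filter through the CpG B array alone, so its lean to CpG B was fixed by the filter. A second probe set of Mir9-1 gave 0.20 in place of -1.26.

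The arrays of mouse 2 do not enter the difference, but the level filter and the choice of probe set used all 7 arrays. In mouse 2 HL7G was at least 2-fold higher than unstimulated for 1057 of all 11127 genes (9.5%), for 32 of the 89 genes on the R848 side (36.0%) and for 3 of the 79 on the CpG B side (3.8%). HL7G was at least 2-fold lower for 141 of all genes (1.27%), for 4 on the R848 side (4.49%) and for 33 on the CpG B side (41.8%). The medians of that difference were 0.115 over all genes, 0.656 on the R848 side and -0.798 on the CpG B side. As a check chosen after seeing the data, the counts were repeated on the 7961 genes with 1 probe set that reached 5 on the R848 or CpG B array, which the mouse 2 arrays did not choose. There HL7G was 2-fold higher for 887 of all (11.1%), for 28 of 80 on the R848 side (35.0%) and for 3 of 61 on the CpG B side (4.92%). It was 2-fold lower for 68 of all (0.854%), for 4 on the R848 side (5.0%) and for 24 on the CpG B side (39.3%). In both counts, for genes higher with HL7G the share was above that of all genes on the R848 side and below it on the CpG B side. For genes lower with HL7G it was above that of all genes on both sides, and higher on the CpG B side. Poly I:C in mouse 1 lay between R848 and CpG B for 71 of the 89 and 53 of the 79, against 3995 of all 11127, where a wide gap leaves more room between.

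**Figure D5:**
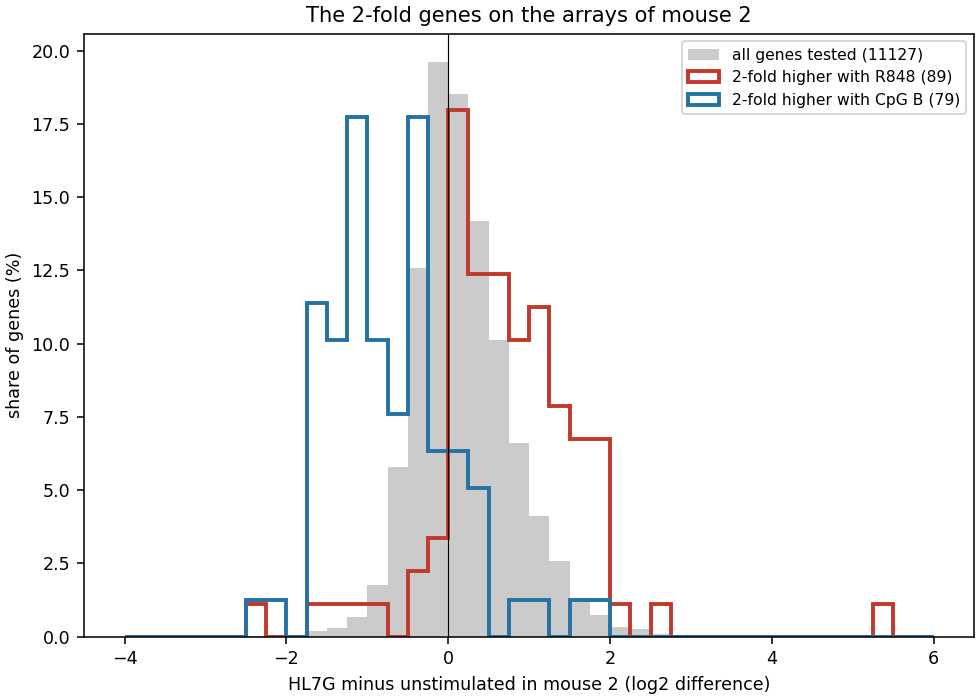
Share of genes in percent (vertical axis) by the log2 difference HL7G minus unstimulated in mouse 2 (horizontal axis), for all 11127 genes (grey), the 89 genes 2-fold higher with R848 (red) and the 79 higher with CpG B (blue). The red outline lies mostly right of 0, with a median of 0.656, and the blue outline mostly left of 0, with a median of -0.798.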

How the data were processed

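RNA of 7 mouse spleen monocyte samples was measured on Affymetrix Mouse Gene 2.0 ST arrays. The deposited values are log2 levels per probe set. Per the submitters' processing notes, the authors used RMA, Transcriptome Analysis Console and Affymetrix Expression Console. Versions and genome build: not given in the sources used here. RMA fits all arrays to 1 distribution, which hides differences in total RNA. The number of arrays limits the precision. Of 41345 probe sets 23521 had 1 gene symbol in GEO's platform annotation, 1814 several and 16010 none listed.

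Differences were fitted with limma 3.58.1 in R 4.3.3 (lmFit and eBayes, 5 groups, 2-sided, Benjamini-Hochberg over 11127 genes), which was tested on simulated data. The 2 groups of 2 arrays gave the spread, with 2 residual and 4.938 prior degrees of freedom. Arrays of 1 mouse number share the animal, which pairs them, and the deviations of unstimulated and HL7G between mice had r = -0.146 over the genes. The genes and lists were chosen with earlier results of these data known. Named were the 14 largest differences each way among genes with a level of at least 6 on either array, without predicted loci, small RNAs and receptor families, up to 4 members of each list, and a fixed set of response genes. Genes outside this rule are marked in the text. Other scalings, probe set choices, filters, variance models and left-out arrays were tried.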

Additional observations from a re-analysis of the deposited data

How the results depend on the processing

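With 1 array a side the values describe 2 arrays, and 2 mice give all of the spread. Leaving out either array of a same-treatment pair gave the same fit as using the other pair only, so those settings are not separate checks. Limma called 0 genes under all 16 settings, and the smallest adjusted p of a setting ran from 0.268 (quantile scaling) to 1. Over the same 11127 genes the count at an unadjusted p under 0.05 ran from 198 without an unstimulated array to 635 without an HL7G array. With the mouse number as a replicate block 0 genes were called, 207 had an unadjusted p under 0.05, and the block changed no call. Genes 2-fold higher with CpG B numbered 138 with loess scaling and 119 with no filter, against 79. Under a mean level of at least 6 there were 49 genes 2-fold apart, 25 higher with R848 and 24 with CpG B, and under a level of at least 6 on either array 87, 49 and 38. Median centring gave 72 and 89, and quantile scaling 81 and 97. Of the 89 genes on the R848 side 69 stayed 2-fold with loess scaling and 65 with quantile scaling, and of the 79 on the CpG B side 76 and 78. Of 49 named genes 2-fold apart 45 stayed so with loess and 42 with quantile scaling, and 0 changed sign under either. Among the pathway lists, loess scaling turned the medians of the interferon genes (-0.10), the immediate-early factors (-0.10), the sterol genes (-0.09), the nucleotide synthesis genes (-0.02) and the mitochondrially encoded genes (-0.05) negative. A mean level of at least 6 did so for the endosomal receptor genes (-0.02, 4 members). That level took the immediate-early factors to 0.46 (7 members) and the costimulation genes to 0.46 (5 members), where all genes had a median of 0.15. Leaving out the filter turned the inflammasome genes negative (-0.08). The cause was not tested.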

Other observations

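Sterol synthesis had a median difference of 0.05 over 14 tested genes, with Fdft1, the enzyme that commits to squalene, at 5.59 with R848 and 4.60 with CpG B and Insig1, a brake on sterol synthesis, at 6.36 and 6.78. Glycolysis had a median of 0.14, with 9 of 14 higher with R848, and Hk2, an inducible hexokinase, read 6.88 and 6.31. Heat shock chaperones had a median of 0.10, and Hsph1, a chaperone of the HSP110 family, read 6.61 and 5.51 and was the only member past 2-fold. Manf, a secreted protein of the stressed endoplasmic reticulum, read 5.26 with R848 and 4.24 with CpG B, where the other 5 arrays lay between 4.18 and 4.63. It passed the level filter through the R848 array alone, so the place of that array as the highest was fixed by the filter. Mitochondrially encoded genes had a median of 0.02, with ND1 at 11.01 and 11.41 and ND4 at 11.39 and 11.12. BCL2 family genes had a median of -0.04, with Bcl2 itself at 5.96 and 6.31. Among coagulation genes F3, which encodes tissue factor, read 5.09 with R848 and 4.78 with CpG B, within the 4.45 to 4.97 of the other 5 arrays for CpG B and above it for R848. F3 too passed the filter through the R848 array alone.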
